A study of Mus musculus with 10 samples.

Results

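Gene deserts are long stretches of chromosome without protein-coding genes. The regions described here are peaks of open chromatin in such stretches of the mouse genome: autosomal peaks (build mm10) that lie outside the bounds of all protein-coding genes of RefSeq GRCm38.p6 and more than 100 kb from the nearest bound. The choice used position alone, with no measured level. It took in 11643 of 122984 peaks (9.47%), spread over 1069 deserts, where a desert is the interval between neighbouring protein-coding genes. Open DNA was cut and tagged with a transposase (ATAC-seq) in adipocytes grown from MAP cells, an immortalized line of mouse adipocyte progenitors. The study addressed adipocyte browning, the gain of heat-producing features by fat cells. It had 5 groups of 2 libraries: forskolin after 4 hours, after 1 day and after 3 days, rosiglitazone after 3 days, and control. Forskolin activates adenylyl cyclase and so raises cyclic AMP (cAMP). Rosiglitazone activates the nuclear receptor PPARγ. Before treatment at day 7 to 8, all groups, control included, had been differentiated for 2 days with insulin, 500 µM isobutylmethylxanthine (an inhibitor of cAMP breakdown), 1 µM dexamethasone and 1 µM rosiglitazone, and for 2 further days with insulin and 1 µM rosiglitazone. The control cells were therefore not free of earlier rosiglitazone, and all libraries came from 1 cell line. Each library started from 10000 nuclei sorted on a DNA dye. The labels give no time for the control, and 1 control group served all comparisons. Time on a treatment can therefore not be told apart from time in culture. Doses of the later forskolin and rosiglitazone treatments are not given in the sources used here. Nor do they state if a group's libraries were separate cultures, so p-values measure the spread between these libraries, which may be technical.

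Open chromatin far from genes often marks enhancers, short DNA elements that bind transcription factors and can act on a promoter across long distances. Deserts beside genes of developmental transcription factors are known for holding many such elements. cAMP activates protein kinase A, which phosphorylates CREB, a factor that binds the cAMP response element (CRE). CREB and the related AP-1 factors are among the first to act after a rise in cAMP. In fat cells this pathway follows adrenergic stimulation and leads to lipolysis and to transcription of thermogenic genes.

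Sequences are shown first for the desert elements that RefSeq GRCm38.p6 itself annotates, namely start sites of long noncoding RNAs and microRNAs, because they tie changed peaks to known sequence. A promoter window here is 250 bases before to 50 bases after an annotated start. 161 such windows, of 147 genes, overlapped 150 of the peaks. Printed below, 5′ to 3′ on the gene's strand, are 3 windows whose peaks rose after 4 hours of forskolin and 1 whose peak fell. All 4 lie wholly inside their peak. They were picked by log2 fold change, as the 3 largest rises and the largest fall among such windows, with 1 chromosome left out. Capitals mark the AP-1 motif TGANTCA and the CRE core TGACG, each searched on both strands.
Gm30257, chr2:72733571-72733870, plus strand: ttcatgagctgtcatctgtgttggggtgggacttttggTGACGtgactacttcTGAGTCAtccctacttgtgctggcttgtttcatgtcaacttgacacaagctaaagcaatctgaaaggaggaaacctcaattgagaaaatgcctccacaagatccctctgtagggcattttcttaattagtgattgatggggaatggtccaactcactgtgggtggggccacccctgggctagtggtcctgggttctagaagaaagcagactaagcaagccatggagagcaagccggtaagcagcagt
Gm51680, chr9:61033616-61033915, minus strand: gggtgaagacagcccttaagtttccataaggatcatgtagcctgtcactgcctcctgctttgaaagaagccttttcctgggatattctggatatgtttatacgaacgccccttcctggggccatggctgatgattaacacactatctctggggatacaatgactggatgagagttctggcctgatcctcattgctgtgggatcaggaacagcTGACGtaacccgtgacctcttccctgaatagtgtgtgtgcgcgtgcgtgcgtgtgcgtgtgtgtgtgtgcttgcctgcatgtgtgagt
Gm32500, chr11:56425482-56425781, minus strand: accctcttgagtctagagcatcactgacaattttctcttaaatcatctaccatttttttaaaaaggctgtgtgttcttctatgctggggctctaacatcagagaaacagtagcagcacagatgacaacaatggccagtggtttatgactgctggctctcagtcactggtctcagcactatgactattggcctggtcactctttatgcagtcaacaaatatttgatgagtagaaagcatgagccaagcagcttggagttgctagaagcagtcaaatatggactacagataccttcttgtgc
Gm34474, chr8:35218390-35218689, plus strand: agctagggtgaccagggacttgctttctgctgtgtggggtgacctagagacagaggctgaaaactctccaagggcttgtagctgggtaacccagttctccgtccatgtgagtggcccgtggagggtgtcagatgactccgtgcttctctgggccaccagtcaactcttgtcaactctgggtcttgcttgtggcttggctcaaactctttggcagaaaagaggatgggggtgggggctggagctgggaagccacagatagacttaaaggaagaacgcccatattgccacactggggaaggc

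Levels below are CPM, the count of a peak scaled to its library's total in peaks times its trimmed-mean (TMM) factor. The peak over the Gm32500 window, between Nmur2 and Gria1, had 8.48 and 4.95 CPM after 4 hours of forskolin, against 1.31 and 1.98 CPM in control, a log2 fold change of 2.00 ± 0.326 (SE; adjusted p = 9.91e-07). The peak over the Gm30257 window, between Cdca7 and Sp3, had 3.35 and 2.96 CPM after 4 hours, against 1.01 and 1.07 CPM in control (log2 fold change 1.59, adjusted p = 0.00113). The peak over the Gm51680 window, between Uaca and Tle3, had 11.2 and 12.8 CPM after 4 hours, against 6.56 and 3.63 CPM in control (log2 fold change 1.26, adjusted p = 2.81e-06). In each of these 3 peaks both treated libraries lay above both control libraries. The peak over the Gm34474 window, between Tnks and Ppp1r3b, went the other way, with 7.49 and 7.73 CPM after 4 hours, against 16.4 and 20.6 CPM in control (log2 fold change -1.29, adjusted p = 1.62e-09). Of the 147 peaks with such a window that could be tested, 34 (23.1%) rose and 19 (12.9%) fell after 4 hours, against 18.5% and 12.9% of all 118954 tested peaks. The AP-1 motif stood in 11 of 35 windows at risen peaks, in 1 of 20 at fallen peaks and in 19 of 103 at peaks without a call. It stands in 7.81% of all 32851 RefSeq promoter windows and in 9.31% of those of long noncoding RNAs. The CRE core stood in 5 of 35, 1 of 20 and 11 of 103 windows, against 20.8% of all promoter windows and 15.7% of those of long noncoding RNAs, and the whole CRE, TGACGTCA, which holds that core, in 1 of the 161. The motif TTGCNNAA, read by C/EBP factors, which drive fat cell differentiation, stood in 10 of 35, 2 of 20 and 18 of 103 windows, against 10.8% of all promoter windows and 12.0% of those of long noncoding RNAs. These matches describe the letters of the windows and were not tested.

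MicroRNAs silence messenger RNAs that pair with their seed, bases 2 to 8, given here in capitals. RefSeq GRCm38.p6 places 101 of 919 autosomal microRNA hairpins over 100 kb from any protein-coding gene, and 7 of them had a gene-desert peak within 500 bp. Shown are the mature forms whose hairpins lay near the called peaks described next, with the first pair sharing the seed AGCACCA.
mmu-miR-29a-3p: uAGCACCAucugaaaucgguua
mmu-miR-29b-3p: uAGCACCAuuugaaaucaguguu
mmu-miR-6390: gAAUUGAUcaggauguaacca
mmu-miR-802-5p: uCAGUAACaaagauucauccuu
The Mir29a and Mir29b-1 hairpins, whose products repress collagen and other matrix genes, lie in the desert between Klf14 and Mkln1 on chromosome 6, 312 bp and 675 bp from the peak chr6:31061812-31062348. That peak had 19.9 and 21.4 CPM after 4 hours of forskolin, against 7.87 and 5.62 CPM in control (log2 fold change 1.63 ± 0.177, adjusted p = 7.36e-12). It stayed above control after 1 day, at 14.0 and 14.8 CPM (log2 fold change 1.11), and after 3 days, at 13.7 and 11.2 CPM (0.90), while the rosiglitazone libraries had 6.40 and 5.12 CPM (-0.22, adjusted p = 0.592). Neither control library reached any of the 6 forskolin libraries there. The peak 67 bp from Mir6390, in the desert between Ndfip2 and Spry2 on chromosome 14, had 8.22 and 5.61 CPM after 4 hours, against 0.505 and 0.991 CPM in control (log2 fold change 3.15, adjusted p = 9.77e-10). Mir802, in the desert between Runx1 and Setd4, has its nearest peak 2398 bp away. That peak was higher after 1 day than in control, at 3.02 and 1.63 CPM against 0.202 and 0.496 CPM (log2 fold change 2.65, adjusted p = 0.000534). MicroRNA levels themselves were not measured.

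Gene-desert peaks were narrower and less open than the other classes. Their median width was 323 bp, against 341 bp for other intergenic peaks, 330 bp for peaks in gene bodies and 821 bp for peaks that overlap a gene within 1 kb of a gene's bound, called gene-end peaks here. Their median level per length was 5.78 CPM per kb, against 7.19, 7.16 and 25.2 CPM per kb in the same classes. The median distance to the nearest protein-coding gene was 195 kb, 1155 peaks lay over 500 kb away and 190 over 1000 kb. A desert held a median of 6 peaks, 162 deserts held 1, and 192 deserts with at least 20 held 6531. Protein-coding genes alone defined the deserts: 20.1% of the peaks overlapped an annotated long noncoding RNA, against 18.7% of other intergenic peaks, and only 1674 lay more than 100 kb from every annotated gene of any kind. After a filter on low counts, 11045 of the 11643 peaks (94.9%) were tested.

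The libraries held between 10410233 and 18935287 counts in peaks. Adipocyte marker genes (Adipoq, Fabp4, Plin1, Pparg, Cebpa, Lipe, Cidec, Lpl) had peaks within 1 kb of a bound for 8 of 8 genes, summing to 318 to 375 CPM in forskolin libraries, 464 and 476 CPM in rosiglitazone libraries and 388 and 434 CPM in control libraries. With rosiglitazone Fabp4 averaged 105.8 CPM, against 59.4 CPM in control, and Plin1, Cidec, Lpl and, slightly, Lipe were also higher. Adipoq (25.3 against 31.3 CPM), Cebpa (70.2 against 84.7 CPM) and Pparg (50.2 against 57.7 CPM) were lower. The macrophage list, with peaks at Csf1r and Cd68 of its 5 genes, summed to 27.9 and 27.6 CPM after 4 hours of forskolin, 22.7 and 20 CPM after 1 day, 24.7 and 26.0 CPM after 3 days and 27.6 and 26.5 CPM after rosiglitazone, against 20.3 and 20.4 CPM in control. Cd68, which other cell types also express, averaged 25.9 CPM after 4 hours and 19.9 CPM in control, and Csf1r 1.80 CPM and 0.473 CPM. The part of these markers in the results was not tested. No such peak was present for Ptprc, Adgre1 or Itgam of the macrophage list, Pecam1 or Cdh5 of the endothelial list, Rbfox3 of the neuron list, or Myod1 of the muscle list. The other members of the neuron list did have peaks. That list summed to 38.3 to 43.6 CPM over all libraries, mostly through Syt1 and Tubb3 (means 22.4 and 18.2 CPM in control). The endothelial list, through Tek and Kdr, summed to 7.69 to 11.5 CPM. The muscle list summed to 20.4 and 22.2 CPM in rosiglitazone libraries, against 14.6 and 14.9 CPM in control libraries, through Acta1 (mean 15.6 CPM, against 8.72 CPM in control), while Myog (2.65 against 2.77 CPM) and Ckm (3.06 against 3.30 CPM) were slightly lower. Its part in the results was not tested. 3 libraries stood apart in the deserts: both control libraries (S1 and S2) and 1 library of 3 days of forskolin (S8). In them, 19 very high peaks, each averaging at least 100 CPM, held 44.9%, 42.8% and 46.6% of all gene-desert counts, against 26.5% to 34.8% in the other 7 libraries. The highest of these, chr9:3000010-3038213, had 5384 and 8220 CPM after 4 hours of forskolin, against 11168 and 9037 CPM in control, and 13405 CPM in S8. The peaks chr17:39843034-39847248 and chr17:39847455-39848760, which overlap the ribosomal RNA gene Rn18s-rs5, chr2:98666243-98667319 and chr14:19415720-19419407 were likewise highest in S1, S2 and S8. The very high peaks may lie in repeated sequence, which was not checked. Shares and ratios of gene-desert counts, and the change of 1 desert, are given with and without these peaks. The counts of called peaks and deserts include them. The step was chosen after the data were seen.

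After 4 hours of forskolin, peaks in gene deserts rose more often than they fell. 2563 rose (23.2% of those tested) and 1072 fell (9.71%), against a background over all tested peaks of 18.5% that rose and 12.9% that fell (31.4% in either direction). A call means an adjusted p below 0.05 in edgeR's quasi-likelihood test over all peaks. At least 2-fold changes made up 1914 of the rises and 671 of the falls. The median log2 fold change was 0.21 in gene deserts and -0.00 over all tested peaks. Peaks outside genes but within 100 kb of one lay between, with 20.2% risen and 11.6% fallen, while gene-end peaks showed 4.04% risen and 24.9% fallen. Risen peaks had a median width of 406 bp and a median level of 7.01 CPM per kb, fallen peaks 467.5 bp and 7.42 CPM per kb, and peaks without a call 295 bp and 5.60 CPM per kb. The risen peaks lay in 659 deserts and the fallen ones in 451. An annotated noncoding gene overlapped 22.6% of the risen, 23.3% of the fallen and 21.0% of the uncalled peaks. Without S2 the calls came to 1633 rises and 727 falls, and without S3 to 1757 rises and 670 falls. The nuclei were measured in bulk, so a peak open in more cells and a peak more open per cell cannot be told apart.

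**Figure D1:**
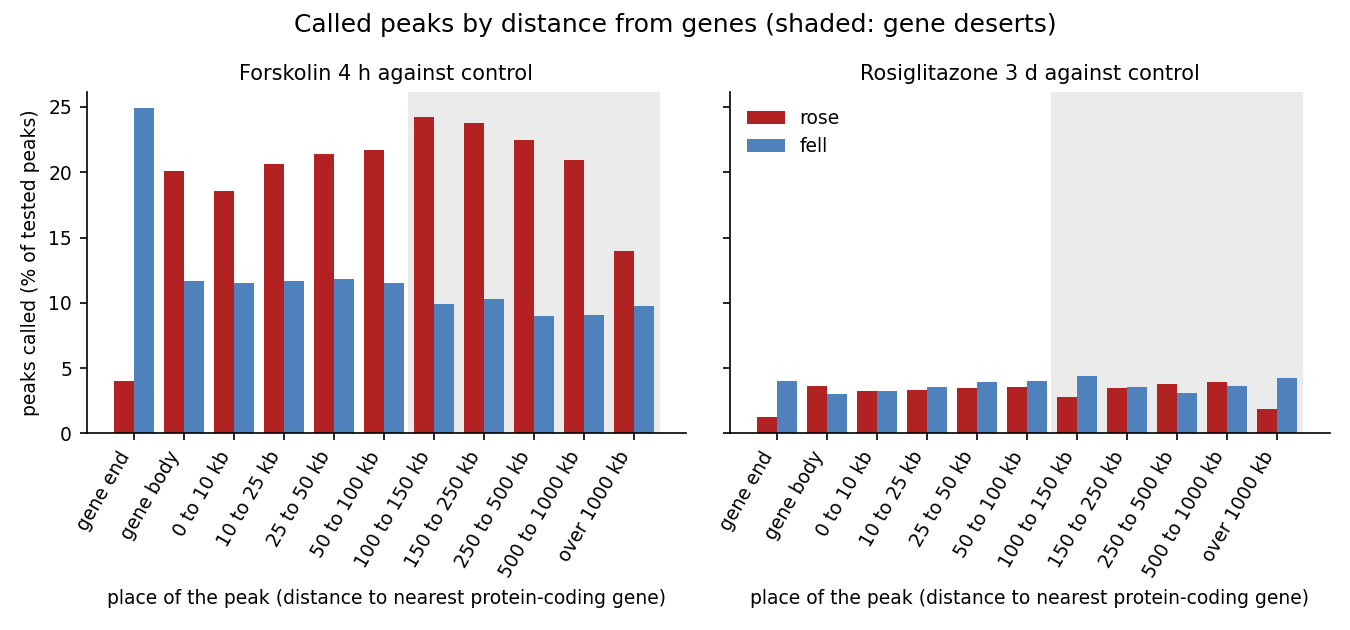
The share of tested peaks that rose or fell (vertical axes, %) is drawn by class and by distance from the nearest protein-coding gene, for 4 hours of forskolin in one panel and 3 days of rosiglitazone in the other. With forskolin the risen share is 24.2% at 100 to 150 kb, above the 18.6% within 10 kb, and 14.0% over 1000 kb, while with rosiglitazone it lies between 1.83% and 3.95% in all distance bins.

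Distance from genes went with the share of peaks that rose, up to a point. After 4 hours, 18.6% rose among intergenic peaks within 10 kb of a gene, 20.6% at 10 to 25 kb, 21.4% at 25 to 50 kb, 21.7% at 50 to 100 kb, 24.2% at 100 to 150 kb and 23.8% at 150 to 250 kb. Farther out the share was 22.5% at 250 to 500 kb, 20.9% of 885 peaks at 500 to 1000 kb and 14.0% of 164 peaks beyond. In that last bin 23 rose and 16 fell after 4 hours, and 9 rose and 19 fell after 1 day. No step stood at the 100 kb boundary: 22.0% rose of 504 peaks at 95 to 100 kb and 23.2% of 495 peaks at 100 to 105 kb. The share of peaks called went with level, so peaks were also set side by side at matched level. The 5 bins of mean level each held an equal number of all tested peaks. From low to high, 13.3%, 20.2%, 25.9%, 34.3% and 34.2% of gene-desert peaks rose, against 11.5%, 17.1%, 21.9%, 25.4% and 26.7% of other intergenic peaks. Falls were closer, at 4.19%, 7.74%, 10.8%, 13.7% and 22.1%, against 5.18%, 7.99%, 10.6%, 15.1% and 22.3%. After 3 days gene-desert peaks fell more often in every bin, at 1.78%, 3.78%, 6.44%, 9.14% and 13.7%, against 1.57%, 3.21%, 4.12%, 6.67% and 11.5%.

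**Figure D2:**
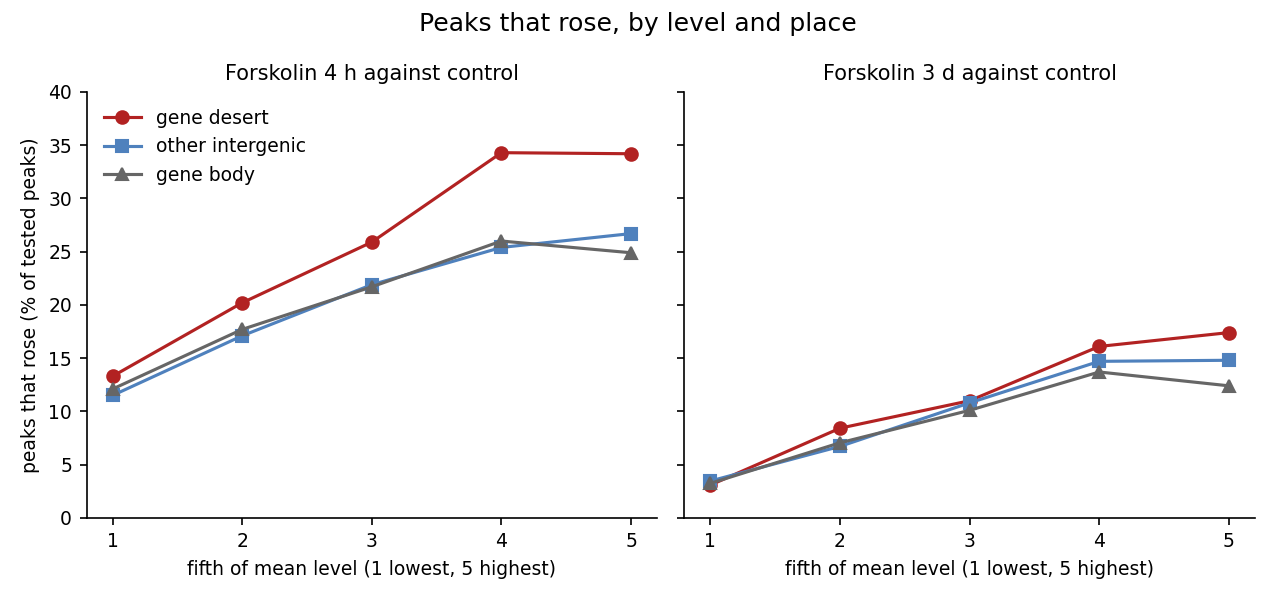
The share of tested peaks that rose (vertical axes, %) is drawn by bin of mean level, from lowest to highest, for gene-desert, other intergenic and gene-body peaks, after 4 hours of forskolin in one panel and after 3 days in the other. After 4 hours gene-desert peaks lie above other intergenic peaks in all 5 bins, with the widest gap in the fourth, at 34.3% against 25.4%. After 3 days they lie above in 4 of the 5 bins, with 3.08% against 3.46% in the lowest.

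At the later times fewer peaks differed from control, again with more rises than falls. After 1 day, 1659 gene-desert peaks rose (15.0%) and 747 fell (6.76%), against 12.9% and 9.84% of all tested peaks. Of other intergenic peaks 14.6% rose and 6.83% fell after 1 day, and 9.86% and 5.02% after 3 days. After 3 days, 1063 gene-desert peaks rose (9.62%) and 619 fell (5.60%), against 8.49% and 5.34% of all tested peaks. Without S7 the 3-day calls were 524 rises and 426 falls. Leaving out S2 brought the calls to 1325 at 1 day and 920 at 3 days, leaving out S5 or S6 to 1391 or 1587 at 1 day, and leaving out S1 or S7 to 1111 or 950 at 3 days. Between the times themselves, 230 peaks were higher (2.08%) and 446 lower (4.04%) after 1 day than after 4 hours, against 2.58% and 2.99% of all tested peaks (5.57% in either direction). After 3 days 345 were higher (3.12%) and 909 lower (8.23%) than after 4 hours, against 4.38% and 6.75% of all tested peaks. Between 3 days and 1 day 26 peaks differed (0.235%, against 0.187% of all tested peaks), 17 of them higher and 9 lower, against 0.109% and 0.0773% of all tested peaks. Leaving out 1 library moved that last count to 0 without S5 or S8, 1 without S6 and 138 without S7. The 676 differences between 1 day and 4 hours came to 190, 275, 212 and 188 without S3, S4, S5 and S6 in turn. The 1254 between 3 days and 4 hours came to 511, 796 and 674 without S3, S4 and S8.

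Fewer desert peaks were called for rosiglitazone. 370 rose (3.35%) and 408 fell (3.69%) after 3 days, against 3.22% and 3.35% of all tested peaks (6.57% in either direction), and the median log2 fold change was 0.00. The counts are thus near the background. They came to 327, 412, 414 and 415 calls without S9, S10, S1 and S2 in turn, against 778 with all libraries. Set directly against rosiglitazone at the same time, 3 days of forskolin gave 1796 higher peaks (16.3%) and 1130 lower peaks (10.2%), against 12.9% and 8.82% of all tested peaks and 15.1% and 8.80% of other intergenic peaks. Without S7 or S10 those calls fell to 1879 or 1848 in all.

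The peaks called after 4 hours of forskolin were followed in the comparison of 3 days of forskolin with rosiglitazone, which shares no library with it. Of the 2563 that rose after 4 hours, 1050 were higher and 42 lower after 3 days of forskolin than after rosiglitazone, with a median log2 difference of 0.71. Of the 1072 that fell, 381 were lower and 65 higher, with a median of -0.49. Among the 7410 without a call, 681 were higher and 707 lower. The 1050 shared rises are 41.0% of the 4-hour rises and 58.5% of the rises over rosiglitazone. The 381 shared falls are 35.5% of the 4-hour falls and 33.7% of the falls below rosiglitazone. These overlaps were counted in gene-desert peaks alone, so they do not show if deserts differ in this from other peaks.

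The single peaks with the largest rises after 4 hours had little signal in control. The peak chr10:118709592-118710034, between Ifng, which encodes interferon gamma, and the kinase gene Dyrk2, had 5.00 and 5.07 CPM after 4 hours, against 0.202 and 0.413 CPM in control (log2 fold change 3.96 ± 0.483, adjusted p = 4.01e-10). At chr15:67313680-67314362, between St3gal1 and Zfat, the libraries had 13.7 and 13.6 CPM after 4 hours, against 1.01 and 1.16 CPM in control (3.64 ± 0.281, adjusted p = 7.31e-18). That peak kept 11.7 and 12.0 CPM after 1 day and 11.9 and 7.04 CPM after 3 days, while rosiglitazone libraries had 0.963 and 0.802 CPM. At chr4:64952556-64953310, between Tnc, which encodes the matrix protein tenascin C, and Pappa, a protease that frees insulin-like growth factors, levels were 12.7 and 11.0 CPM after 4 hours, against 1.01 and 0.991 CPM in control (3.56). The peak chr10:96774511-96775189, beside Btg1, an inhibitor of proliferation, had 30.6 and 27.8 CPM after 4 hours, against 2.42 and 2.56 CPM in control (3.54, adjusted p = 8.52e-25). At chr10:111637048-111637678, between Phlda1 and Krr1, the 14.6 and 13.8 CPM after 4 hours stood against 1.01 and 1.49 CPM in control, and levels were down to 4.92 and 5.81 CPM after 1 day. The rule that named these peaks required groups without overlap and ranked them by fold change, which favours peaks with low control levels.

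The largest falls after 4 hours differed in how long they lasted. At chr5:111594085-111594462, between Mn1 and Cryba4, levels were 0.394 and 0.302 CPM after 4 hours, against 2.22 and 2.06 CPM in control (log2 fold change -2.60, adjusted p = 3.36e-05). The same peak had 2.18 and 1.58 CPM after 1 day and 3.48 and 2.37 CPM after 3 days, neither called against control. At chr16:30797903-30798408, between Fam43a and Xxylt1, levels were 0.592 and 1.15 CPM after 4 hours, against 4.44 and 5.78 CPM in control (-2.54), and stayed at 1.17 and 1.02 CPM after 1 day and 0.826 and 0.870 CPM after 3 days. Peaks between Mctp2 and Rgma (-2.62), between Gas1 and Dapk1 (-2.58) and between Max and Fut8 (-2.52) also fell after 4 hours. Of these, the peak between Gas1 and Dapk1 had 1.05 and 1.27 CPM after 4 hours, against 7.37 and 6.61 CPM in control, and 4.48 and 4.35 CPM after 3 days.

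Other peaks stood out at the later times. At chr4:83973006-83973649, between Ccdc171 and Bnc2, levels were 12.3 and 13.5 CPM after 3 days of forskolin, against 1.82 and 1.57 CPM in control (log2 fold change 2.93, adjusted p = 3.01e-14). At chr1:90439831-90440282, between the chemokine receptor gene Ackr3 and Cops8, they were 5.31 and 4.98 CPM after 3 days, against 0.606 and 0.826 CPM in control (2.82). The peak chr4:95283720-95284096, between Jun, which encodes an AP-1 subunit, and Fggy, had 0.354 and 0.554 CPM after 3 days, against 5.05 and 4.05 CPM in control (-3.33, adjusted p = 9.72e-08). The peak chr13:100950814-100951586, between Slc30a5 and Pik3r1, a regulatory subunit of PI3 kinase in insulin signalling, had 1.36 and 1.50 CPM after 3 days, against 6.36 and 9.99 CPM in control (-2.53). After 1 day, falls stood out between Ndst3 and Tram1l1 (-2.64), between Nrsn1 and Hdgfl1 (-2.60) and between Pik3r1 and Cd180 (-2.54).

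Some desert peaks responded differently to forskolin and rosiglitazone. At chr10:23600700-23601492, between Eya4 and Rps12, levels were 0.295 and 0.158 CPM after 3 days of forskolin and 7.91 and 7.16 CPM after rosiglitazone, against 2.12 and 2.15 CPM in control. It fell by 3.14 with forskolin and rose by 1.82 with rosiglitazone on the log2 scale, and the direct difference was -4.95 ± 0.462 (adjusted p = 4.08e-14). At chr10:109497899-109498676, between Syt1, a calcium sensor of vesicle release, and Nav3, levels were 2.54 and 1.90 CPM after 3 days of forskolin, against 19.9 and 20.4 CPM after rosiglitazone (-3.16, adjusted p = 2.66e-20). The peak chr16:93236245-93236746, between Runx1 and Setd4, had 0.413 and 0.617 CPM after rosiglitazone, against 1.72 and 3.06 CPM in control (-2.21, adjusted p = 0.000242). That fall lost its call without S2. The same peak had 5.33 and 7.06 CPM after 4 hours of forskolin and rose against control (1.35, adjusted p = 0.000188). After 3 days of forskolin it had 4.37 and 3.80 CPM, not called against control (0.75, adjusted p = 0.0901) and higher than after rosiglitazone (2.96, adjusted p = 3.54e-09). The peak chr8:91999225-91999534 lies between Irx3 and Irx5, homeobox genes with known roles in fat cell thermogenesis. It had 0.344 and 1.11 CPM after rosiglitazone, against 4.04 and 2.81 CPM in control (-2.17, adjusted p = 8.95e-05), and rose to 7.82 and 5.80 CPM after 4 hours of forskolin (1.00, adjusted p = 0.00565). At 3 days of forskolin the level was 2.48 and 3.01 CPM, below control without a call (-0.32, adjusted p = 0.571) and higher than after rosiglitazone (1.86, adjusted p = 0.000199). The peak chr13:6102419-6102703, between Klf6 and Pitrm1, rose with both agents, to 3.54 and 2.29 CPM after 3 days of forskolin and 2.41 and 1.48 CPM after rosiglitazone, against 0.303 and 0.330 CPM in control (3.18 and 2.57). At chr13:16222839-16223592, between Inhba, which encodes an activin subunit, and Sugct, the rise was seen after rosiglitazone, with 5.44 and 7.96 CPM, against 0.606 and 1.57 CPM in control (2.57, adjusted p = 6.88e-06). It had 0.826 and 1.35 CPM after 3 days of forskolin, and the direct difference was -2.65 (adjusted p = 1.99e-07).

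Summing the peaks of each desert gave 1 value per desert and library. Of 1050 deserts tested, 365 rose (34.8%) and 103 fell (9.81%) after 4 hours of forskolin, against 15.5% and 19.9% of all 24564 blocks of summed peaks and 22.9% and 12.9% of other intergenic blocks. Blocks were not matched in number of peaks or in level, so these shares do not compare like with like. Among the 594 deserts with at least 5 tested peaks, 284 rose (47.8%) and 52 fell (8.75%). After 1 day 284 deserts rose (27.0%) and 85 fell (8.10%), against 12.0% and 22.2% of all blocks, and after 3 days 153 rose (14.6%) and 76 fell (7.24%), against 7.14% and 9.13%. With rosiglitazone 58 rose (5.52%) and 68 fell (6.48%), against 3.23% and 4.95% of all blocks (8.19% in either direction). In the direct comparison 216 deserts (20.6%) were higher after 3 days of forskolin than after rosiglitazone and 112 (10.7%) lower. Over all blocks those shares were 10.5% and 9.27%. Other intergenic blocks lay nearer the deserts, with 18.2% risen and 9.19% fallen after 1 day and 11.1% and 6.18% after 3 days. With rosiglitazone 4.58% of them rose and 4.33% fell, and in the direct comparison 15.1% were higher and 10.2% lower. Without S2, 309 deserts were called at 4 hours, 209 at 1 day, 84 at 3 days and 41 for rosiglitazone. Without S5 it was 213 at 1 day and without S1 136 at 3 days. Without S7 the 3-day calls were 84 rises and 86 falls, so the excess of rises was not there, and without S2 they were 52 rises and 32 falls. At 4 hours the falls came to 53 without S3, 60 without S2 and 68 without S1. The rosiglitazone count was 47, 37 and 51 without S1, S9 and S10, and the direct comparison gave 215 and 191 without S9 and S10. Peaks of 1 desert did not always move together: of 263 deserts with at least 5 called peaks after 4 hours, 42 had rises alone, 3 had falls alone and 218 had both.

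The desert between Kif18a and Bdnf on chromosome 2, which spans 333 kb, had the largest rise after 4 hours among deserts with at least 5 tested peaks. Bdnf encodes brain-derived neurotrophic factor. Its 10 peaks summed to 20.8 and 20.3 CPM after 4 hours of forskolin, against 5.05 and 4.13 CPM in control (log2 fold change 2.17 ± 0.207, adjusted p = 1.09e-08). They summed to 12.7 and 9.62 CPM after 1 day, 11.4 and 8.62 CPM after 3 days and 7.23 and 5.00 CPM after rosiglitazone. All 10 peaks were called as risen after 4 hours. The most open of them, chr2:109473317-109473689, had 3.22 and 4.11 CPM after 4 hours, against 1.01 and 1.16 CPM in control (1.75, adjusted p = 0.000509). The peak chr2:109443563-109443923 had 2.56 and 2.90 CPM after 4 hours, against 0.404 and 0.248 CPM in control, and was still risen after 3 days at 2.77 and 1.50 CPM (2.74, adjusted p = 0.000471). The peak chr2:109462309-109462555 was the 1 member of this desert called for rosiglitazone, at 2.55 and 1.54 CPM, against 0.303 and 0.330 CPM in control (2.65, adjusted p = 0.00563). Most of these levels are a few CPM, so single peaks rest on small counts.

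**Figure D3:**
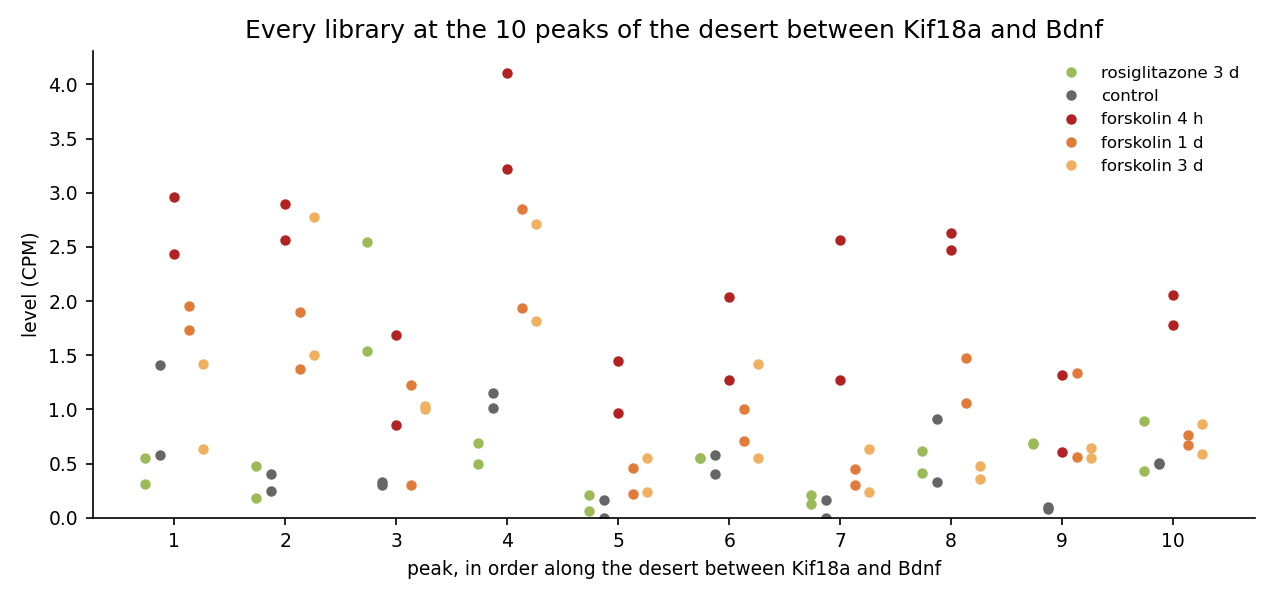
The level of each of the 10 gene-desert peaks between Kif18a and Bdnf (vertical axis, CPM) is drawn in order along the desert, with a point for each library. Libraries after 4 hours of forskolin lie above both control libraries at all 10 peaks, for example at 3.22 and 4.11 CPM against 1.01 and 1.16 CPM at the fourth.

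Other deserts rose with the same agent and differed in how long. Fst, next to Mocs2, encodes follistatin, which binds activins and myostatin. The 10 peaks of that desert summed to 44.4 and 40.3 CPM after 4 hours, against 18.2 and 15.8 CPM in control (log2 fold change 1.32 ± 0.123, adjusted p = 6.15e-09), and to 28.3 and 24.2 CPM after 3 days. Its strongest peak, chr13:114654198-114655438, had 21.8 and 22.8 CPM after 4 hours, against 8.08 and 5.53 CPM in control (1.73). Between Samsn1 and Nrip1, a corepressor of nuclear receptors that restrains energy expenditure in fat, 6 peaks summed to 15.6 and 19.8 CPM after 4 hours, against 7.67 and 7.27 CPM in control (1.25). They remained at 16.7 and 14.0 CPM after 3 days (1.05, adjusted p = 0.000164). Between Asb1 and Twist2, which encodes a bHLH repressor, the 5 peaks summed to 31.0 and 28.7 CPM after 4 hours, against 13.6 and 10.5 CPM in control (1.32), and to 24.8 and 23.3 CPM after 3 days (1.01). Between Fam83b and Tinag levels were 21.6 and 19.8 CPM after 4 hours, against 7.57 and 8.34 CPM in control (1.37), then 12.0 and 10.7 CPM after 1 day (0.51, adjusted p = 0.0269) and 10.6 and 7.83 CPM after 3 days (0.22, adjusted p = 0.432). In all 4 deserts both libraries at 4 hours lay above both control libraries.

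Fewer deserts fell, and in several of them a single very high peak held most of the counts. Between Olig3 and Ifngr1, the ligand-binding chain of the interferon gamma receptor, 5 peaks summed to 11.6 and 11.6 CPM after 4 hours, against 27.4 and 24.8 CPM in control (log2 fold change -1.16, adjusted p = 1.55e-07). The main change there was at chr10:19472433-19473573, with 1.38 and 2.05 CPM after 4 hours, against 9.59 and 7.68 CPM in control (-2.31). The same peak rose with rosiglitazone, to 15.3 and 14.8 CPM (0.80, adjusted p = 0.00672). Between Dkk2, a modulator of Wnt signalling, and Gimd1, 13 peaks summed to 27.7 and 24.6 CPM after 3 days of forskolin, against 41.0 and 39.1 CPM in control (-0.61). In the falling deserts between LOC108168698 and Samd9l, between Myom2 and Csmd1 and between Pcdh7 and G6pd2, 1 peak held 91.9%, 77.9% and 89.4% of the counts. The last of these fell by 0.65 on the log2 scale after 3 days (adjusted p = 1.26e-05) and was at 0.12 once peaks of at least 100 CPM were left out.

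For rosiglitazone the largest rise was in the desert between AW209491 and Gli3, which encodes a transcription factor of Hedgehog signalling. Its 6 peaks summed to 10.3 and 11.2 CPM after rosiglitazone, against 5.96 and 3.14 CPM in control (log2 fold change 1.27, adjusted p = 0.00243), and both rosiglitazone libraries lay above both control libraries. Without S2 the value was 0.86 (adjusted p = 0.12). Rises also came between Tpbg and Ube2cbp (0.89) and between Emp1 and Grin2b (0.73). Against rosiglitazone, 3 days of forskolin gave higher sums between Adamts3 and Cox18, at 46.7 and 47.2 CPM against 21.3 and 18.1 CPM (1.25, adjusted p = 2.76e-09), and lower sums between Syt1 and Nav3, at 23.0 and 22.8 CPM against 44.0 and 45.0 CPM (-0.96).

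**Figure D4:**
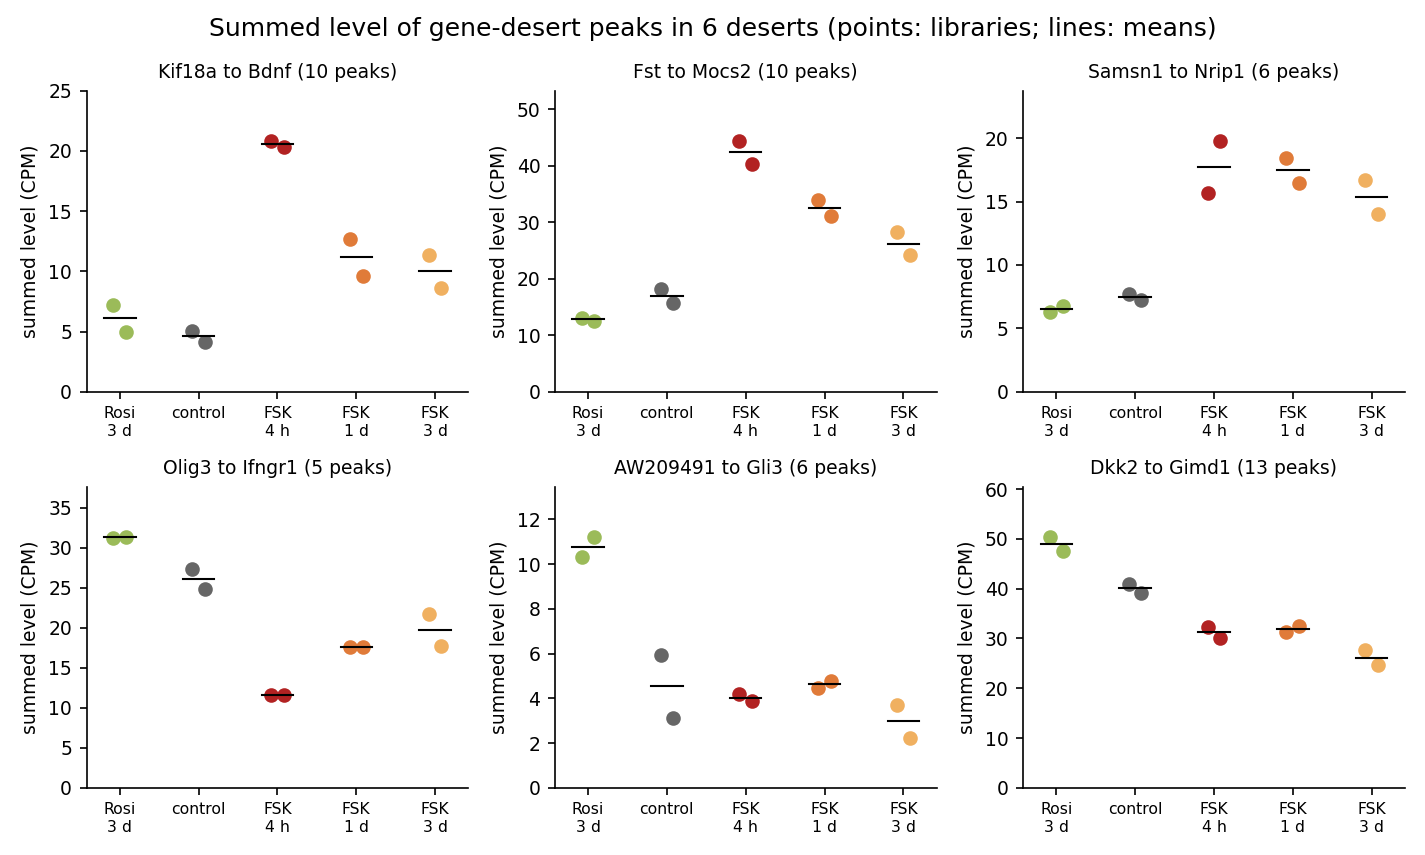
The summed level of gene-desert peaks (vertical axes, CPM) is drawn for 6 deserts, with a point for each library and a line at each group's mean. The desert between Kif18a and Bdnf stands at 20.8 and 20.3 CPM after 4 hours of forskolin, against 5.05 and 4.13 CPM in control, and that between Olig3 and Ifngr1 at 11.6 and 11.6 CPM, against 27.4 and 24.8 CPM.

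The deserts with the most peaks held changes in both directions. For scale, deserts with at least 5 tested peaks had a median log2 fold change of 0.25 after 4 hours of forskolin and 0.0 after rosiglitazone. Of all gene-desert peaks tested, 23.2% rose and 9.71% fell after 4 hours, and 3.35% rose and 3.69% fell after rosiglitazone. The one between Myc, a proto-oncogene and regulator of cell growth, and Gsdmc held 120 peaks. Its sum was 771 and 775 CPM after 4 hours, against 700 and 691 CPM in control (log2 fold change 0.15, adjusted p = 0.0124), with 33 peaks risen and 15 fallen. Between Plpp3 and Usp24, 98 peaks summed to 418 and 380 CPM after 4 hours, against 305 and 318 CPM in control (0.36), with 28 risen and 9 fallen. Between Zeb2 and Acvr2a, an activin receptor, the 86 peaks summed to 225 and 228 CPM after 4 hours, against 213 and 211 CPM in control (0.09, adjusted p = 0.216), although 17 rose and 6 fell. The 73 peaks between Marcks and Rfpl4b summed to 295 and 282 CPM after rosiglitazone, against 228 and 223 CPM in control (0.36, adjusted p = 0.000491), with 9 risen and 1 fallen. The same number between Adamts5 and N6amt1 had 12 risen and 4 fallen after 4 hours.

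Peaks were also read by the nearest protein-coding gene, in 4 lists. Being nearest does not show that a peak acts on that gene. Among developmental transcription factors, 72 of 131 genes had a gene-desert peak. Of their 959 tested peaks 240 rose (25%) and 90 fell (9.38%) after 4 hours of forskolin, with a median log2 fold change of 0.27, against 23.2%, 9.71% and 0.21 over all gene-desert peaks tested. Near Gata3, a factor that holds back fat cell differentiation, 11 of 32 tested peaks rose and 2 fell. Near Ets1 9 of 29 rose, near Id2, an inhibitor of bHLH factors, 8 of 26, and near Meis1 and Sox2, factors of stem and progenitor cells, 9 of 20 each, with no fall near any of the 4. The pattern was the opposite near Tcf4, a bHLH factor, with 1 of 19 risen and 7 fallen, and near Osr1, with 4 of 18 fallen and none risen. Near Myc 27 of 107 rose and 14 fell.

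The list of cAMP signalling genes also held inhibitors of other kinase signalling, such as Spry2 and Dusp6. Of its 77 genes 18 had a gene-desert peak, with 122 tested peaks. Of those peaks 35 rose (28.7%) and 7 fell (5.74%) after 4 hours, with a median log2 fold change of 0.53, against 23.2%, 9.71% and 0.21 over all gene-desert peaks tested. Without the peaks near Spry2, the gene with the most rises, 24 of 104 rose (23.1%, against the same 23.2%) after 4 hours and 13 of 104 (12.5%) after 1 day. After 1 day 21 rose (17.2%) and 7 fell (5.74%), against 15.0% and 6.76% of gene-desert peaks, and after 3 days 12 rose (9.84%) and 5 fell (4.10%), against 9.62% and 5.60%. Near Spry2, an inhibitor of receptor tyrosine kinase signalling, 11 of 18 rose and none fell after 4 hours, with a median of 1.09, and 8 rose after 1 day. Near Dusp6, a phosphatase that inactivates ERK kinases, 4 of 15 rose. Near Adcy8, which encodes an adenylyl cyclase, 5 of 15 rose and 1 fell. Rises were fewer near Jun, with none of 9 risen and 1 fallen, and near Adra1b, with 1 of 9 risen and 2 fallen. Adra2a had 3 of 11 risen and 1 fallen, and Ptger4 3 of 18 risen and 1 fallen. Among adipocyte and thermogenic genes only 7 of 63 had a gene-desert peak, with 12 of 76 tested peaks risen (15.8%) and 8 fallen (10.5%) after 4 hours, against the same 23.2% and 9.71%. Near Ppargc1a, the coactivator of mitochondrial and thermogenic genes, 3 of 22 rose and 1 fell. Near Irs1, an adaptor of the insulin receptor, 3 of 26 rose and 5 fell after 4 hours, and none rose and 5 fell after 3 days. Near Irs2, a second such adaptor, 4 of 14 rose and none fell after 4 hours. Cell adhesion and axon guidance genes had 96 risen (20%) and 46 fallen (9.56%) of 481 tested peaks after 4 hours, against 23.2% and 9.71% of gene-desert peaks and 18.5% and 12.9% of all tested peaks. Near Efnb2, which encodes an ephrin ligand, 14 of 45 rose and 2 fell, while near the endothelial cadherin gene Cdh5 5 of 19 fell and none rose.

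The whole share of reads in gene deserts did not separate forskolin from control. Gene-desert peaks held 6.41 ± 0.314% of counts in forskolin libraries (SD, n = 6) and 6.41 ± 0.366% in control libraries (SD, n = 2; two-sided exact permutation test, p = 1). By library the shares were 6.12% and 6.52% after 4 hours, 6.40% and 6.04% after 1 day and 6.47% and 6.92% after 3 days of forskolin, 5.54% and 5.42% after rosiglitazone, and 6.66% and 6.15% in control. Without the 19 very high peaks the shares were 4.79 ± 0.28% in forskolin libraries and 4.19 ± 0.144% in control libraries (SD, n = 6 and 2; exact permutation p = 0.0714). The smallest p that 28 assignments allow is 0.0357. By library they were then 5.05% and 4.93% after 4 hours, 4.99% and 4.73% after 1 day, 4.76% and 4.28% after 3 days, 4.41% and 4.22% after rosiglitazone, and 4.29% and 4.09% in control. The libraries after 4 hours and after 1 day lay above both control libraries, and S8, after 3 days, did not. The log2 ratio of gene-desert to other intergenic counts was -1.85 ± 0.112 in forskolin libraries and -1.76 ± 0.0497 in control libraries (SD, n = 6 and 2; exact permutation p = 0.357). Without the very high peaks of both classes it was -2.29 ± 0.0489 and -2.36 ± 0.0272 (SD, n = 6 and 2; exact permutation p = 0.143).

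**Figure D5:**
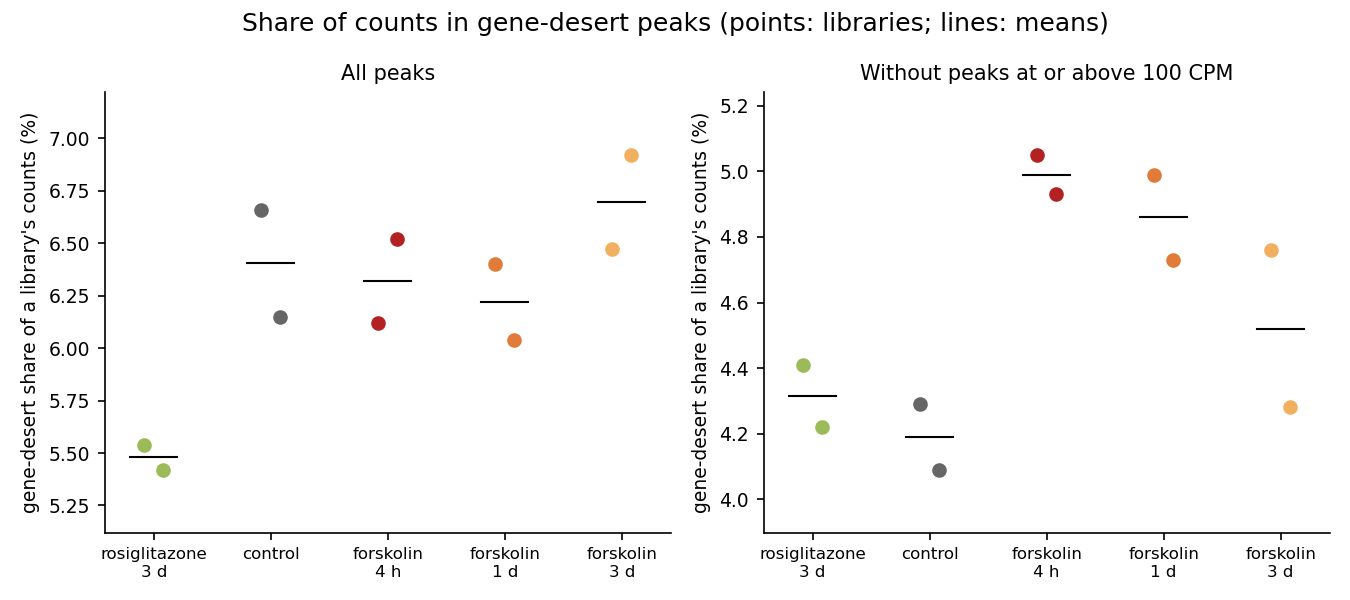
The share of each library's counts in gene-desert peaks (vertical axes, %, not starting at 0) is drawn with all peaks on the left and without peaks averaging at least 100 CPM on the right, with a point for each library and a line at each group's mean. On the right the libraries after 4 hours of forskolin, at 5.05% and 4.93%, lie above the control libraries, at 4.29% and 4.09%, while on the left the forskolin and control groups overlap and the rosiglitazone libraries, at 5.54% and 5.42%, lie lowest.

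The peak farthest from any protein-coding gene, at 2138 kb, was chr1:102628147-102628330, between Cntnap5b and Cdh20. It had 21.2 and 24.0 CPM after 4 hours, against 35.9 and 39.9 CPM in control (log2 fold change -0.75, adjusted p = 9.56e-06). S8, which stood apart with the control libraries at the very high peaks, had 34.1 CPM there. If the fall of this peak belongs to that pattern was not tested.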

How the data were processed

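ATAC-seq counts per peak were analysed for 10 libraries in 5 groups of 2. The deposited table holds raw counts of reads per peak for all libraries; the submitters' processing notes list deepTools, featureCounts, MACS2, Picard, SAMtools, Bowtie2 and fastp, and the builds GRCm38 and mm10, without roles or versions. The labels do not state if libraries were pooled for peak calling. Libraries carry their column's group and running number (S1 and S2 control, S3 and S4 forskolin 4 hours, S5 and S6 1 day, S7 and S8 3 days, S9 and S10 rosiglitazone); the labelled replicate numbers are not in the columns.

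Peaks were placed against 21896 protein-coding genes of RefSeq GRCm38.p6. No genome sequence was used, so letters of single peaks are not shown. Counts of all peaks were fitted together with edgeR 4.0.16 in R 4.3.3 (TMM factors, filterByExpr, robust quasi-likelihood test, all 10 libraries sharing 1 estimate of the spread), with Benjamini-Hochberg adjustment over the 118954 peaks tested and calls at an adjusted p below 0.05. The median biological coefficient of variation was 0.163 over peaks and 0.0735 over sums. Sums were made per desert, per other intergenic interval and per run of genes, scaled as in the fit of peaks, and tested likewise over 24564 blocks. The scripts were tested on simulated counts. Library totals of 10410233 to 18935287 set the precision: peaks of a few CPM rest on small counts per library. Fold changes are log2, with the treatment over control or forskolin over rosiglitazone. CPM is scaled to the library's total count in peaks times its TMM factor.

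Named peaks were, per comparison, the 5 largest called changes each way among members at or above the median level with non-overlapping groups, at most 1 per desert. Named deserts were the 5 largest called changes each way among those with at least 5 tested peaks, the 5 with the most peaks, the 5 highest members and the farthest one. Not all of them are printed. Peaks inside other named deserts, printed promoter windows, microRNAs and example genes of the lists were picked after their values were seen. The rule for members, the gene lists and the markers were chosen with earlier results of these data known. Alternatives were library size alone, DESeq2 1.42.0, offsets trended on level (loess span 0.3), no filter, only the 2 groups compared, each library left out, 200 kb, all annotated genes and, added after the data were seen, no peaks at or above 100 CPM and gene lists without the gene with the most risen peaks.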

Additional observations from a re-analysis of the deposited data

Results flagged for a closer look

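The change against control differed between treatments for part of the gene-desert peaks, by the test of the difference itself (edgeR's quasi-likelihood test, adjusted p below 0.05). It differed between 1 day and 4 hours of forskolin for 676 peaks (6.12%, against 5.57% of all tested peaks), between 3 days and 4 hours for 1254 peaks (11.4%, against 11.1%) and between 3 days and 1 day for 26 peaks (0.235%, against 0.187%), shares near the background. Between 3 days of forskolin and 3 days of rosiglitazone it differed for 2926 peaks (26.5%, against 21.7%). Single libraries moved the smaller counts: 26 came to 0 without S5 or S8, and 676 to 188 without S6.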

How the results depend on the processing

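Shares below are of tested gene-desert peaks or deserts called. Leaving out each library in turn gave, for peaks, 20.7% to 33.1% at 4 hours, 11.6% to 22.2% at 1 day, 8.08% to 14.8% at 3 days, 2.88% to 8.02% for rosiglitazone, 16.3% to 26.7% for 3 days of forskolin against rosiglitazone, 1.65% to 6.92% for 1 day against 4 hours, 4.49% to 12.0% for 3 days against 4 hours, 0.0% to 1.21% for 3 days against 1 day and 23.1% to 33.4% for the 3 forskolin times tested jointly (33.1% with all libraries). For deserts it gave 29.3% to 48.9%, 19.8% to 39.5%, 7.95% to 26.1%, 3.5% to 16.9% and 18.1% to 31.2% in the first 5 of these comparisons. A group left with 1 library is assumed to vary like the others. DESeq2 called 13.7% at 1 day, 8.83% at 3 days, 3.24% for rosiglitazone, 2.15% for 1 day against 4 hours, 5.47% for 3 days against 4 hours, 0.0362% for 3 days against 1 day and 20.5% jointly. Fits of only the 2 groups compared called 10.3% for 1 day against 4 hours, 0.146% for 3 days against 1 day, and 10.0% of deserts at 3 days (21.8% in the fit of all groups). With all annotated genes the share for 3 days against 1 day was 0.39%.

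Scaling moved the balance of calls. Rises were 69.0% of calls at 1 day, 63.2% at 3 days, 47.6% for rosiglitazone, 34.0% for 1 day against 4 hours and 65.4% for 3 days against 1 day; with library size alone they were 81.7%, 75.0%, 64.3%, 45.6% and 37.9%. For deserts they were 77.0% at 1 day, 66.8% at 3 days and 46.0% for rosiglitazone, and with library size alone 89.8%, 84.1% and 74.2%. Trended offsets gave 79.7% for deserts at 3 days and 60.4% for rosiglitazone, and DESeq2 37.2% for rosiglitazone peaks. Over all peaks tested, the median log2 fold change moved to 0.10 at 4 hours (-0.00 with TMM) and 0.19 at 1 day (0.04 with TMM) under library size alone. At 4 hours the gene-desert median stood above that of all peaks by 0.22, by 0.21 with library size alone, 0.22 with DESeq2 and 0.14 with trended offsets. With trended offsets 20.2% rose and 11.5% fell at 4 hours, against 16.7% and 12.8% of all peaks, but at 1 day 8.29% fell against 8.06%, so the lower share of falls at 1 day turned.

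Forskolin minus control in the share of counts was 0.00376 percentage points, -0.02 at 200 kb, and -0.255 to 0.262 with 1 library left out. The difference in log2 ratio was -0.09, -0.12 with all annotated genes (exact permutation p = 0.0357), 0.07 without peaks at or above 100 CPM and -0.13 to -0.05 with 1 library left out; without S8 it was -0.13 (exact permutation p = 0.0476, the smallest possible there). The desert between Pcdh7 and G6pd2 turned to 0.12 at 3 days without those peaks. Causes were not tested. Of 50 named peak results 48, and of 50 named desert results 37, kept their call under all alternatives run. No paired analysis was possible because the columns carry no labelled replicate numbers.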
